A study of Mus musculus with 6 samples.

Results

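The genes described here mark the macrophages of the mouse liver. The 10 were chosen by name: 5 of resident Kupffer cells (Clec4f, Vsig4, Timd4, Marco and Cd5l) and 5 of recruited monocytes and macrophages (Ccr2, Cx3cr1, Itgam, Csf1r and Adgre1). They are 10 of 18342 genes that could be named on the array, and 16 probes measure them. All 10 were among the 15382 genes tested, which lay well above background on at least 2 of the 6 arrays. Cx3cr1 passed that filter through 3 arrays with NTBC withdrawal only, so a higher value there is partly built in.

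Kupffer cells are the macrophages that live inside the blood vessels of the liver. They are mostly seeded before birth, maintain themselves, and clear bacteria, lipoproteins and dying cells from the blood with scavenger and complement receptors. Monocytes come from bone marrow, leave it and enter injured liver in answer to CCR2 ligands, and can turn into macrophages that take up Kupffer cell genes with time. The sets overlap, since Csf1r and Adgre1 are made by both kinds of macrophage and Itgam (CD11b) also by neutrophils.

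RNA of 6 samples from mice on a BL6 background was hybridised, 1 array each. All carried the Fah deletion Fah_del_tm1Mgo, and so lacked the hydrolase that ends the breakdown of tyrosine; NTBC, a drug given in drinking water at 7.5 μg/ml as the 100% dose, stops that pathway earlier on and protects them. FCR mice carried in addition Rag2_del_tm1Fwa and, for the common gamma chain Il2rg, del tm1Wjl, alleles that leave a mouse without mature T and B cells or NK cells but with monocytes, macrophages and neutrophils. On continuous NTBC there was 1 healthy Fah liver and 1 normal FCR liver. After withdrawal there were 2 samples labelled tumour, both Fah, and 2 labelled inflamed liver, both FCR. In both pairs replicate 1 had the regimen labelled off, 2 courses of withdrawal with NTBC given again, and replicate 2 the regimen labelled 2xoff/on, 2 cycles with collection after the off and on phases; the labels do not say in which phase each liver was taken. Age is not stated in the labels, and whether the arrays of a pair stand for different mice is not said, so that p-values measure only the spread between these samples.

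Replicate 1 and both continuous arrays shared a slide and both 2xoff/on arrays another, so regimen and slide cannot be told apart within the tumour or the inflamed group. Between 60.4% and 74.4% of spots were well above background, no spot was saturated, and the number of arrays limits the precision. The arrays differed in brightness. Their 75th percentile was 363 and 374 in healthy Fah and normal FCR liver, 811 and 890 in tumour, and 363 and 722 in inflamed FCR liver. Each level below is a log2 processed signal from which the 75th percentile of its array was subtracted, read from the gene's brightest probe; levels are compared between arrays and not between genes. In a principal component analysis inflamed FCR 1 stood apart on the second component (21.8% of the variance). Il2rg, the targeted common gamma chain, gave signal well above background on each Fah array and on none of the 3 FCR arrays, and Rag2 on no array. All 4 named hepatocyte markers were well above background on every array, and their summed signal, in multiples of the 75th percentile, was 1750 in healthy and 1620 in normal FCR liver, 709 and 581 in tumour and 1090 and 754 in inflamed FCR liver.

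The resident genes differed from each other in how they followed the groups. Clec4f, Vsig4 and Timd4 were lowest, of the 6 arrays, on inflamed FCR 2. Marco and Cd5l were highest on inflamed FCR 1. Because the data turn on the low Clec4f, Vsig4 and Timd4 of 1 array, the bases upstream of their start are shown, with those of Itgam, of the recruited set, for comparison. RefSeq promoters on GRCm38.p6, cut to 250 bases before the start that table uses, were found for 8 of the 10 genes. The Ccr2 window lies wholly inside the annotated span of its gene and is not shown, and the last 13 bases of the Timd4 window lie inside that of Timd4. In the sequences, capitals mark GAGGAA, a core bound by the macrophage factor PU.1, on either strand (TTCCTC on the other).
Clec4f, chr6:83656117-83656366, minus strand: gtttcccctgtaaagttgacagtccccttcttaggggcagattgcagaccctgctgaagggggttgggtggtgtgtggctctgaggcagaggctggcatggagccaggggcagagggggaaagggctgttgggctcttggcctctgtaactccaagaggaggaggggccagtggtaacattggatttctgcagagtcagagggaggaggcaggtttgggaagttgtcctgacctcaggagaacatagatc
Vsig4, chrX:96293439-96293688, minus strand: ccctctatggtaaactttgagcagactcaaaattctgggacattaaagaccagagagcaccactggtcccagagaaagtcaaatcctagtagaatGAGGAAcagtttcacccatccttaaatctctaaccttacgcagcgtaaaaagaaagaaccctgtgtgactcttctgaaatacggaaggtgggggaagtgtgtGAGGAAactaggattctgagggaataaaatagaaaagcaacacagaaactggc
Timd4, chr11:46810549-46810798, plus strand: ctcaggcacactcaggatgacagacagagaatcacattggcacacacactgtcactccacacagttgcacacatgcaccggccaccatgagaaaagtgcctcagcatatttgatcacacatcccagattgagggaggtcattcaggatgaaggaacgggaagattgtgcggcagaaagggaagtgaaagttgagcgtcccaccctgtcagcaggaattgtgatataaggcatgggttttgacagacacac
Itgam, chr7:128062390-128062639, plus strand: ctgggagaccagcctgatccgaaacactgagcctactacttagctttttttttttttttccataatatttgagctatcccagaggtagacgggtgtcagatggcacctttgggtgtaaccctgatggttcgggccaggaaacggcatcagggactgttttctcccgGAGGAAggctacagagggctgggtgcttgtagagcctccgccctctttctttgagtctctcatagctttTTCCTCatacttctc
GAGGAA was found in 4 of 8 members' windows (Vsig4, Marco, Cd5l and Itgam), or 4 of 7 without Ccr2, and in 23.3% of 32817 promoters. This exact stretch was not in the windows of Clec4f and Timd4. Other forms of a PU.1 site were not searched for, and a link between the motif and the levels was not tested.

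Clec4f, a lectin of mouse Kupffer cells that binds galactose, had a log2 level of 3.15 in healthy Fah liver, 3.55 and 4.68 in tumour 1 and 2, 2.61 in normal FCR liver, and 3.34 and 1.37 in inflamed FCR 1 and 2. Both tumours were above both inflamed livers, and the narrow gap between tumour 1 and inflamed FCR 1 contrasts with a wide one between the replicates 2. Vsig4, a complement receptor that captures bacteria, was at 0.26 in healthy liver, 1.23 and 1.54 in tumour, 0.18 in normal FCR liver, and 1.61 and -1.31 in inflamed FCR liver. Its highest and lowest arrays were thus both of the inflamed group. Timd4, a phosphatidylserine receptor of long-lived resident macrophages, was at -0.82 in healthy liver, -0.60 and 0.12 in tumour, -1.52 in normal FCR liver and -1.11 in inflamed FCR 1. On inflamed FCR 2 it was not well above background (-5.88).

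Against the normal FCR array, inflamed FCR 2 was 2.37-fold lower for Clec4f, 2.81-fold lower for Vsig4 and at least 17.6-fold lower for Timd4. In such a bound the dim array counts at its own reading or, where higher, at the dimmest signal that was well above background there. Inflamed FCR 1 had the opposite order, 1.65-fold, 2.70-fold and 1.33-fold above the same control. In bulk liver, fewer cells of a type and less RNA per cell cannot be told apart. The healthy and normal livers lay close together for the 3 genes, with Fah over FCR folds of 1.46 for Clec4f, 1.05 for Vsig4 and 1.62 for Timd4.

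Marco, a scavenger receptor for bacteria and particles, read -0.55 in healthy liver, 3.90 and 5.30 in tumour, 3.23 in normal FCR liver, and 7.62 and 3.38 in inflamed FCR liver. The continuous arrays were themselves 13.7-fold apart, with normal FCR liver above healthy Fah liver, a difference of 1 array against 1. Tumour 1 and 2 were 21.8-fold and 57.4-fold above healthy liver. Inflamed FCR 1 was 20.9-fold above normal FCR liver while inflamed FCR 2 was 1.11-fold above it. Cd5l (AIM), a secreted scavenger protein that binds lipids, was at 3.93 in healthy liver, 5.14 and 6.07 in tumour, 4.27 in normal FCR liver, and 7.37 and 4.49 in inflamed FCR liver. All 4 arrays with withdrawal exceeded both continuous arrays for Marco and Cd5l, and inflamed FCR 2 was the lowest of the 4 for each.

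**Figure D1:**
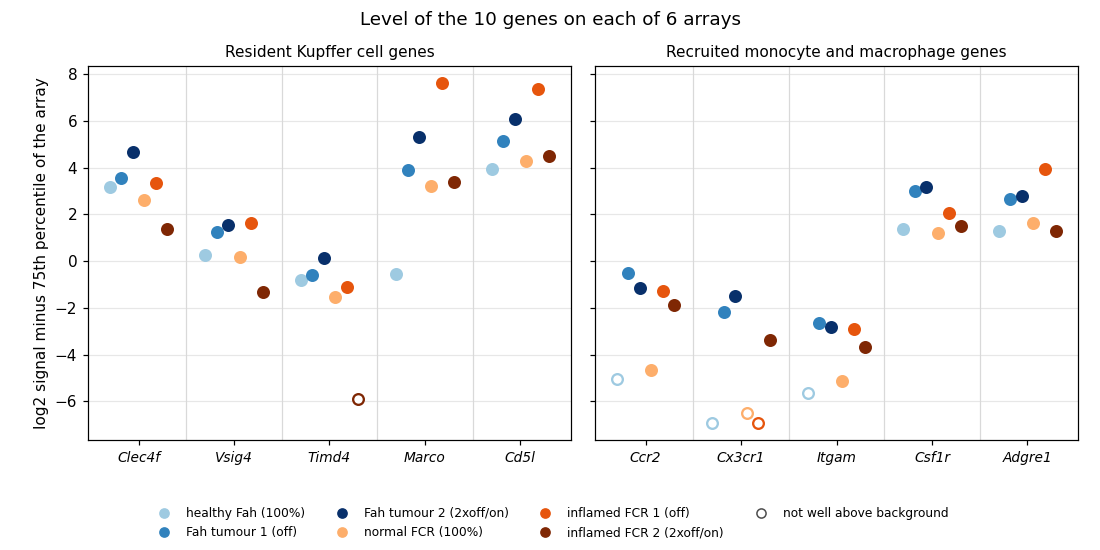
Log2 signal minus the 75th percentile of the array (y axis) for 5 resident and 5 recruited genes (x axis), 1 point per array, with open points where the gene was not well above background. Inflamed FCR 2 (dark brown) is the lowest point for Clec4f, Vsig4 and Timd4, whereas every array with NTBC withdrawal lies above both continuous arrays for Ccr2 and Itgam.

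Of the recruited genes, Ccr2 and Itgam were higher on all 4 arrays with withdrawal than on both continuous arrays and passed the test of withdrawal, while Cx3cr1, Csf1r and Adgre1 did not pass. Ccr2, the receptor that lets monocytes leave the marrow, was at -5.04 in healthy Fah liver, not well above background, and at -4.67 in normal FCR liver. After withdrawal it was -0.50 and -1.15 in tumour and -1.28 and -1.89 in inflamed FCR liver. The 4 arrays with withdrawal were thus separate from the 2 continuous ones, and inflamed FCR 2 was not set apart from the other 3. Itgam, the integrin alpha M chain of monocytes, macrophages and neutrophils, was at -5.64 in healthy liver (not well above background) and -5.15 in normal FCR liver, -2.66 and -2.83 in tumour, and -2.91 and -3.68 in inflamed FCR liver. It showed the same separation as Ccr2.

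Cx3cr1, the fractalkine receptor of patrolling monocytes and some tissue macrophages, was well above background on 3 arrays, at -2.18 and -1.48 in tumour and -3.37 in inflamed FCR 2. On the healthy (-6.93), normal FCR (-6.49) and inflamed FCR 1 (-6.92) arrays it was not. Inflamed FCR 1, the array with the highest Marco and Cd5l, was therefore among those where this probe gave only a bound. A second Cx3cr1 probe, well above background on all arrays but the healthy one, lay between -5.98 and -4.65 and did not show this pattern.

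Csf1r, the receptor for macrophage growth factors, was at 1.39 in healthy liver, 2.98 and 3.16 in tumour, 1.21 in normal FCR liver, and 2.04 and 1.48 in inflamed FCR liver. Both tumours were above the 4 other arrays. Adgre1, a surface receptor used as a general macrophage marker, had 1.27 in healthy liver, 2.64 and 2.77 in tumour, 1.64 in normal FCR liver, and 3.95 and 1.30 in inflamed FCR liver. It had its highest value on inflamed FCR 1 and, as with Vsig4, a low one on inflamed FCR 2. A dimmer Adgre1 probe disagreed on inflamed FCR 1, where it read -5.34 against -4.81 in normal liver, and so did a Csf1r probe (-1.38 against -0.68). Another Csf1r probe read -4.19 on inflamed FCR 1, higher than in normal liver (-5.60), where it was not well above background.

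The mean change with NTBC withdrawal over both genotypes was tested on all 6 arrays, in a fit with genotype and withdrawal as additive terms. Passing it does not mean a change in each genotype: tested within a genotype, Itgam passed in neither and Ccr2 only in Fah. In Fah mice withdrawal also means tumour against healthy liver, and these cannot be told apart. Ccr2 rose by 3.65 ± 0.49 (log2 difference ± SE, 4 arrays against 2) and Itgam by 2.37 ± 0.52. Both passed (limma, Benjamini-Hochberg adjusted p = 0.00285 and 0.0194), so that 2 of 5 recruited genes rose and 0 of 5 resident genes passed, against 9.54% of all tested genes that rose and 14.2% that passed in either direction. Marco differed by 3.71 ± 1.10 (adjusted p = 0.0567), Cx3cr1 by 3.22 ± 1.11 (0.0905), Csf1r by 1.12 ± 0.39 (0.0916), Cd5l by 1.67 ± 0.71 (0.158) and Adgre1 by 1.21 ± 0.64 (0.252). Clec4f, Vsig4 and Timd4 differed by 0.35 ± 0.60, 0.55 ± 0.72 and -0.70 ± 1.17 (adjusted p = 0.756, 0.672 and 0.745). For 5 of 10 genes (Marco, Cd5l, Ccr2, Itgam and Csf1r) the 4 arrays with withdrawal lay above both continuous ones, as for 20.1% of all tested genes.

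The Ccr2 value was 1.49 with normexp background correction and 2.31 with the authors' values, and passed under both (adjusted p = 0.0221 and 0.0188). The Ccr2 call was lost without the healthy Fah array (3.08, adjusted p = 0.075). Without that array, without the normal FCR array and without either tumour array the Itgam call was lost as well (1.86 to 2.89, adjusted p = 0.0595 to 0.322). It was also lost with normexp background correction (0.34, adjusted p = 0.543), quantile normalization (0.062) and the authors' values (0.105). With slide as a block Ccr2 (3.96, adjusted p = 0.00271) and Itgam (2.61, 0.0146) passed, as did the second probe of each. With slide as a block Marco passed too (4.42, adjusted p = 0.0405), among 17% of all tested genes, as it did with normexp (3.56, 0.0304), and Cx3cr1 passed without inflamed FCR 1 (4.25, 0.00644). Without inflamed FCR 2 the count of members that passed was 7 of 10, against 20.6% of all genes tested in that fit: Vsig4 (1.26, adjusted p = 0.0317), Marco (4.82, 0.000141), Cd5l (2.28, 0.00689), Csf1r (1.32, 0.0276) and Adgre1 (1.81, 0.00584) came in.

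Neutrophil markers also rose after withdrawal, 6 of 6 tested, of 7 listed, beside 9.54% of all tested genes. Camp and Ngp passed the filter through arrays with withdrawal only. The summed signal was 0.82 and 1.10 times the 75th percentile on the healthy and normal FCR arrays, 12.4 and 30.7 in tumour, and 20.0 and 37.9 in inflamed FCR liver. This sum was thus highest on inflamed FCR 2, which had the lowest Ccr2 and Itgam of the arrays with withdrawal. The sum weighs the brightest gene most, S100a9 on every array. Mpo, Camp, Ngp and Ltf were lower on inflamed FCR 1 than in tumour 1, while S100a8 and S100a9 were higher. The markers were also split between the replicates 2. Mpo, Camp and Ltf were higher in tumour 2 (0.59, -0.99 and 0.20) than on inflamed FCR 2 (0.21, -1.04 and -0.48). S100a8, S100a9 and Ngp were lower in tumour 2. On the continuous arrays 3 and 4 of the 6 were well above background, after withdrawal all 6. Their part in the Itgam result was not tested.

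**Figure D2:**
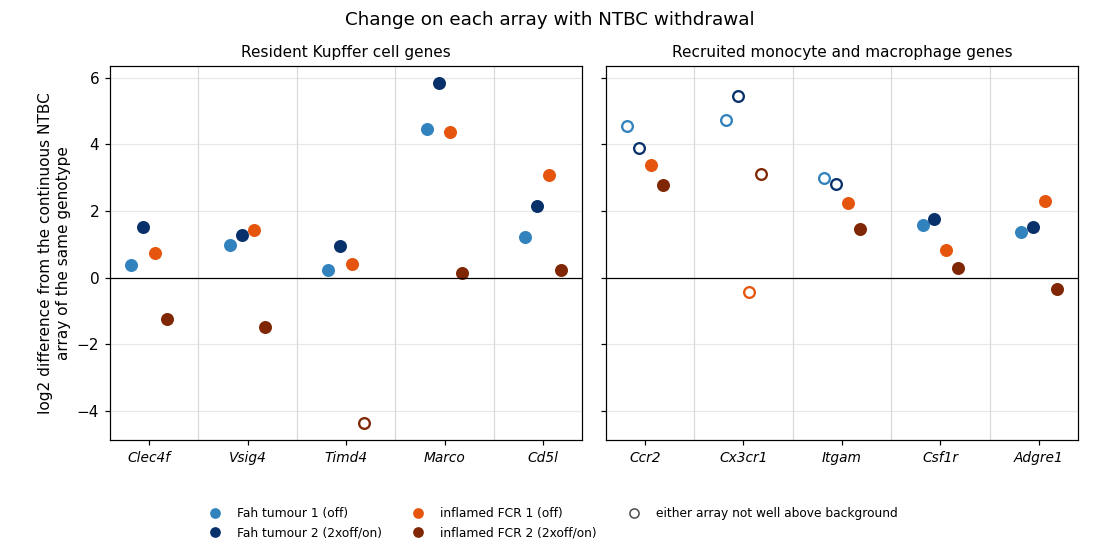
Log2 difference of each array with NTBC withdrawal from the continuous array of its genotype (y axis) for the 10 genes (x axis), 1 point per array, open where either array was not well above background. For Clec4f, Vsig4 and Timd4 the inflamed FCR 2 point lies below 0 and the other 3 above it, while Ccr2 and Itgam lie above 1.4 on all 4 arrays.

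Within the Fah genotype the question was which genes differ between tumour and healthy liver. All 10 genes were higher in both tumours than in healthy liver, an order that 35.8% of all tested genes showed. Only Ccr2 rose, by 4.22 ± 0.73 or at least 18.6-fold (limma, adjusted p = 0.0164); 3.93% of all tested genes rose. Cx3cr1 was at least 9.75-fold higher (adjusted p = 0.0651) and Itgam at least 5.17-fold higher (0.0759) without passing. Marco differed by 5.15 ± 1.41 (0.0765) and Csf1r by 1.68 ± 0.59 (0.155). Cd5l, Adgre1, Vsig4, Clec4f and Timd4 differed by 1.68, 1.44, 1.13, 0.96 and 0.58 (adjusted p = 0.472 to 0.914). The Ccr2 call did not hold with normexp (1.75, adjusted p = 0.0874), quantile normalization (0.0507), the authors' values (0.094), floored values (0.128) or its second probe (3.62, 0.0716), and held without either tumour array (3.89 to 4.54, 0.0142 to 0.0316). Other members passed under some alternatives. The slide block keeps 1 degree of freedom fewer, so its p-values rest largely on spread borrowed from other genes. For Marco, replicate 2 minus replicate 1 was 1.40 in tumour and -4.24 in inflamed FCR liver. With slide as a block 16.5% of all tested genes passed, and with them Ccr2 (adjusted p = 2.29e-08), Marco (3.51e-14), Cx3cr1 (2.5e-05), Itgam (0.000876), Adgre1 (0.021) and Cd5l (0.0221). Over 15 to 17 settings, the reported one included, Marco and Cx3cr1 passed in 6 each, Itgam in 4, Cd5l in 3, and Csf1r and Adgre1 in 2 each; Clec4f, Vsig4 and Timd4 passed in none. Leaving out inflamed FCR 1 or inflamed FCR 2, arrays outside this contrast that enter its estimate of the spread, brought the share of all genes tested that passed to 14% and 15.6%, with 6 and 7 members among them.

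Within FCR mice, inflamed was compared with normal liver in the same way. None of the 10 passed (limma), while 1.76% of all tested genes did; at an unadjusted p under 0.05 Ccr2 and Itgam were the 2 members found, beside 14% of all tested genes. Ccr2 differed by 3.08 ± 0.73 (adjusted p = 0.0811), Itgam by 1.85 ± 0.79 (0.336), Marco by 2.27 ± 1.41 (0.564) and Cd5l by 1.65 ± 1.03 (0.563). Both inflamed arrays exceeded the normal array for 5 of 10 genes (Ccr2, Itgam, Marco, Cd5l and Csf1r), as for 35.5% of all tested genes. For Clec4f, Vsig4, Timd4, Cx3cr1 and Adgre1 the inflamed arrays lay on opposite sides of normal liver. The brightest Cx3cr1 probe was not well above background on inflamed FCR 1 and in normal liver, so it does not give their order. The second Cx3cr1 probe was well above background on these arrays. It read -5.095 in normal liver, and -5.26 and -5.243 on inflamed FCR 1 and 2. Without inflamed FCR 2 the differences of Marco (4.39, adjusted p = 0.00132), Cd5l (3.09, 0.00434), Ccr2 (3.38, 0.0145) and Adgre1 (2.30, 0.0122) passed, among 11.9% of all genes tested, and without inflamed FCR 1 that of Timd4 did (-4.37, 0.0108), among 3.2%; each of these fits borrows the spread of a lone array from the rest. With slide as a block Ccr2 (3.40, adjusted p = 9.21e-05), Marco (2.98, 0.000612) and Cd5l (2.14, 0.0307) passed, among 12.4% of all tested genes. These p-values too rest largely on spread borrowed from other genes.

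The medians of both sets show how the arrays with withdrawal differed from the continuous array of their genotype. The resident median was 0.97 in tumour 1, 1.52 in tumour 2 and 1.43 in inflamed FCR 1, against -1.25 in inflamed FCR 2. The recruited median was 2.98, 2.81, 2.24 and 1.47 in the same order. Medians over all tested genes lay between -0.19 and 0.12. All 10 genes were above the continuous array in tumour 1 and in tumour 2, where 41.9% and 51.2% of all tested genes were. On inflamed FCR 1 the count was 9 of 10 against 54.4%, and on inflamed FCR 2 it was 6 of 10 against 49.3%.

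On inflamed FCR 2, Ccr2 was 6.87-fold, Cx3cr1 at least 4.39-fold and Itgam 2.77-fold above normal liver, while Clec4f, Vsig4 and Timd4 were below it. The second Cx3cr1 probe read -5.095 in normal liver and -5.243 on inflamed FCR 2. The sets did not divide fully there: the resident genes Marco and Cd5l lay 0.15 and 0.22 above normal liver on the log2 scale, and the recruited gene Adgre1 lay at -0.34. Tumour 2, on the same slide and labelled with the same regimen, had the highest Clec4f and Timd4 of the 6 arrays. The difference between the genotypes in their answer to withdrawal was tested as an interaction, and none of the 10 genes passed (limma, adjusted p = 1 for each). No gene of the whole table passed (0%), and 2.16% had an unadjusted p under 0.05. The differences of the answers, Fah minus FCR, were 3.75 ± 1.88 for Cx3cr1, 2.88 ± 1.99 for Marco, 2.55 ± 2.20 for Timd4, 1.22 ± 1.22 for Clec4f and 1.15 ± 1.47 for Vsig4.

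Tumour and inflamed FCR liver differ in genotype and tissue together, which cannot be told apart. None of the 10 genes passed between them (limma), while 0.208% of all tested genes did. For 6 of 10 genes (Clec4f, Timd4, Ccr2, Cx3cr1, Itgam and Csf1r) both tumours lay above both inflamed livers, as for 16% of all tested genes. Cx3cr1 differed by 3.31 ± 1.08 (adjusted p = 0.353), Csf1r by 1.31 ± 0.48 (0.429), Timd4 by 3.25 ± 1.27 (0.469) and Clec4f by 1.76 ± 0.70 (0.488). These 4 had an unadjusted p under 0.05, as had 9.18% of all tested genes. The second Cx3cr1 probe, well above background in both tumours and both inflamed livers, differed by 0.38. With slide as a block, a fit with 1 degree of freedom fewer, Cx3cr1 (adjusted p = 1.16e-05), Timd4 (1.78e-07) and Clec4f (0.0193) passed among 984 genes (6.4%), and no other member did. The other 6 genes differed by -0.90 (Marco), -0.32 (Cd5l), 0.08 (Adgre1), 0.55 (Itgam), 0.76 (Ccr2) and 1.23 (Vsig4), with adjusted p = 0.752 to 0.987. Without inflamed FCR 1 the Timd4 difference was 5.64 and passed (adjusted p = 0.00836), and without inflamed FCR 2 Marco (-3.02, 0.013) and Cx3cr1 (5.09, 0.0101) passed, where 0.368% and 5.26% of all genes tested did.

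Set side by side within each regimen, 1 array against 1, Fah minus FCR medians of the resident genes were 0.08 on continuous NTBC, -0.39 at off and 2.85 at 2xoff/on. Those of the recruited genes were -0.38, 0.78 and 1.47. At 2xoff/on all 10 genes were higher in tumour, as were 47.8% of all tested genes. Timd4 was at least 54.4-fold, Clec4f 9.93-fold and Vsig4 7.20-fold higher there. On continuous NTBC 4 of 10 and at off 6 of 10 were higher in Fah liver, against 43% and 39.4% of all tested genes. At off, Marco was 13.1-fold, Cd5l 4.69-fold, Adgre1 2.48-fold and Vsig4 1.31-fold lower in tumour, and Cx3cr1 at least 12.9-fold higher on its brightest probe. Its second probe read -5.10 in tumour 1 and -5.26 on inflamed FCR 1.

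**Figure D3:**
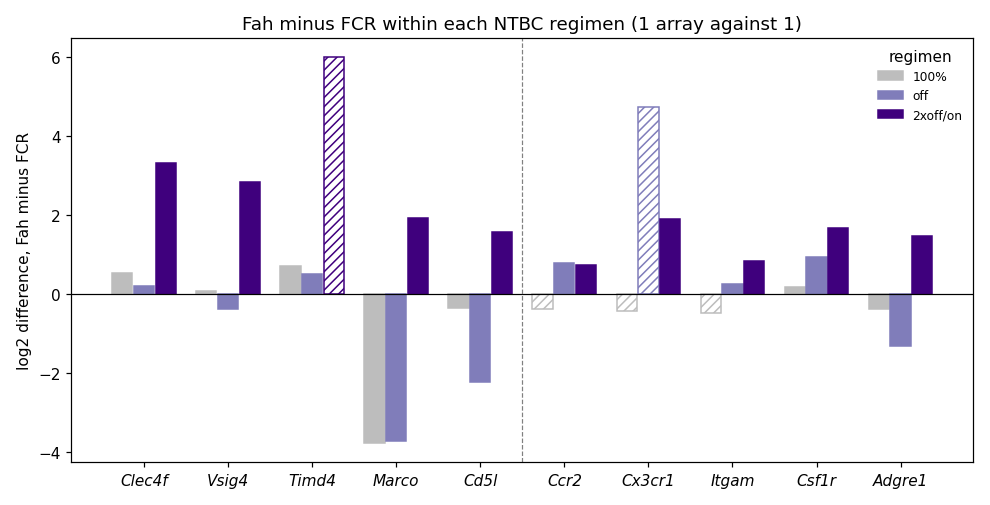
Log2 difference, Fah array minus FCR array (y axis), for each of the 10 genes (x axis) on continuous NTBC (100%), at off and at 2xoff/on, 1 array against 1, so that no error can be given; hatched bars have an array not well above background. At 2xoff/on all 10 bars point upward, and Marco, at -3.78 and -3.72, has the lowest bars on continuous NTBC and at off.

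Pearson's r between the genes over the 6 arrays, given as a description because the arrays share groups, slides and scaling, was 0.90 for Clec4f with Vsig4, 0.91 for Clec4f with Timd4 and 0.88 for Vsig4 with Timd4. Marco with Cd5l gave 0.91 and Cd5l, of the resident set, with Adgre1, of the recruited set, 0.96. Ccr2 with Itgam gave 0.99. Clec4f with Marco gave 0.28. Among 14794 other genes, the 5 most like Clec4f were Snx17, Miip, Cdk20, Myo7a and Fryl (r = 0.966 to 0.981). Pearson's r does not measure the size of a change, and these genes varied less than Clec4f, which ran from 1.37 to 4.68. Snx17 lay between 2.44 and 2.98, and Miip, the widest of the 5, between 1.24 and 2.59. The 5 most like Ccr2 were Tdrd12, Kcnn4, Smim5, Cpe and Prkab2 (r = 0.996 to 0.998).

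The ligands of these receptors were read from a list of 13 recruiting ligands and growth factors, 11 of them tested. In withdrawal against continuous NTBC 5 rose and none fell, with a median of 1.78 against -0.02 over all genes. Of all tested genes 9.54% rose. Ccl2, the main CCR2 ligand, had log2 levels of -1.82 in healthy and -1.25 in normal FCR liver, 2.52 and 2.71 in tumour, and 3.36 and 1.51 in inflamed FCR liver. It rose by 4.06 ± 0.52 (limma, adjusted p = 0.00249), and like Ccr2 it kept inflamed FCR 2 above both continuous arrays. Ccl7 rose by 2.51 ± 0.57 (adjusted p = 0.022). Ccl12, a mouse CCR2 ligand, and Ccl8 were not well above background on either continuous array, and were at least 8.46-fold (adjusted p = 0.00242) and at least 3.90-fold (0.0131) higher after withdrawal. Both passed the filter through arrays with withdrawal only, so their rise is partly built in.

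Cx3cl1, fractalkine, the ligand of Cx3cr1, rose by 2.68 ± 0.75 (adjusted p = 0.0467). It was at -2.28 and -2.21 on the healthy and normal FCR arrays, 2.45 and 0.40 in tumour, and 0.28 and -1.41 in inflamed FCR liver. The tumours thus held more of both ligand and receptor than inflamed FCR 2, but inflamed FCR 1 had the ligand with Cx3cr1 not well above background on its brightest probe. The CSF1R ligands did not pass: Csf1 differed by 0.97 ± 0.39 (adjusted p = 0.135) and Il34 by 0.70 ± 0.47 (0.366). Csf2 and Csf3 were well above background on no array. Between tumour and inflamed FCR liver 0 of 11 passed, beside 0.208% of all tested genes, and Cx3cl1 differed by 1.99 ± 0.81 (adjusted p = 0.496).

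**Figure D4:**
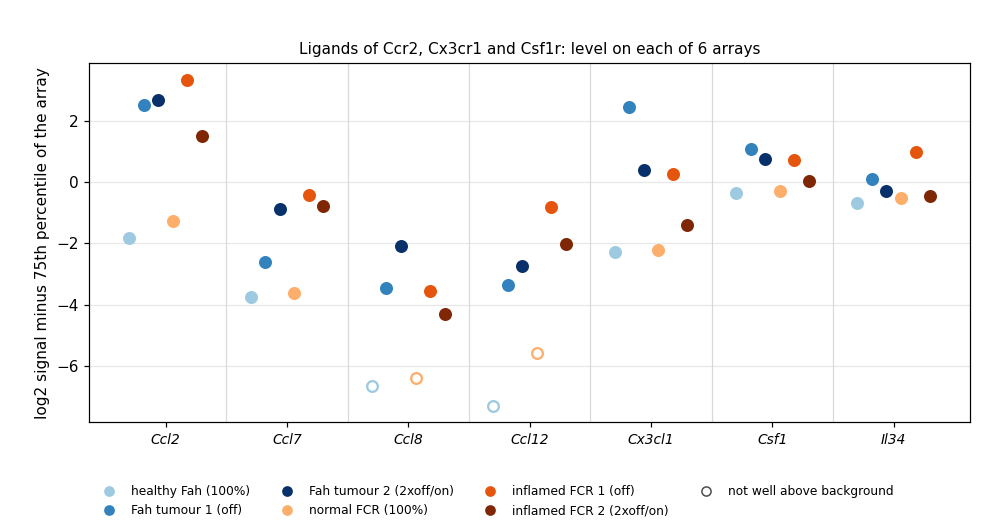
Log2 signal minus the 75th percentile of the array (y axis), 1 point per array, open where not well above background. The x axis holds the chemokines Ccl2, Ccl7, Ccl8 and Ccl12, the CX3CR1 ligand Cx3cl1 and the CSF1R ligands Csf1 and Il34. Ccl2 lies between 1.51 and 3.36 on the arrays with withdrawal and at -1.82 and -1.25 on the continuous arrays.

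Of 12 tested receptors and integrin partners 7 rose after withdrawal, beside 9.54% of all tested genes, with a median of 1.88. Itgb2, the integrin beta chain that pairs with Itgam, rose by 2.03 ± 0.38 (limma, adjusted p = 0.011) and Itgal, another of its partners, by 1.67 ± 0.41 (0.0292). Itgax (CD11c) rose by 3.62 ± 0.64 (0.00839). It was at 1.48 and 1.11 in tumour against -0.49 and -2.17 in inflamed FCR liver, a difference of 2.63 ± 0.66 that did not pass (0.207). Csf2ra and Csf2rb, chains of the GM-CSF receptor, rose by 2.05 ± 0.51 (0.0313) and 1.90 ± 0.40 (0.0169).

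Other Kupffer cell genes did not follow one course. Of 17 identity genes, 2 rose (Vcam1 and Il18bp), 1 fell (C6) and 14 did not pass, with a median of 0.41. Of all tested genes 9.54% rose and 14.2% passed in either direction. Vcam1, an adhesion molecule also made by endothelium, rose by 2.77 ± 0.71 (limma, adjusted p = 0.0348), and was at 3.07 and 3.64 in tumour and 3.93 and 1.09 in inflamed FCR liver against 0.01 and 0.32 on the continuous arrays. C6, a complement component that hepatocytes make as well, fell by 3.54 ± 0.51 (0.00371). The lectin receptor gene Clec1b was at 1.39 in healthy liver, 1.47 and 2.84 in tumour, 1.72 in normal FCR liver, and 4.12 and 2.14 in inflamed FCR liver. It was thus highest on inflamed FCR 1, as Marco was, and on inflamed FCR 2 it lay above normal liver, unlike Clec4f. Cd163, the haemoglobin scavenger receptor, was at 2.51 on inflamed FCR 1 and -1.91 on inflamed FCR 2, on either side of the 4 other arrays. The list lay below normal FCR liver in 10 of 17 genes on inflamed FCR 2 (median -0.12) and above it in 13 of 16 on inflamed FCR 1 (median 1.43).

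Of 13 tested genes of classical monocytes, 7 rose after withdrawal and none fell, where 9.54% of all tested genes rose. The list had a median of 2.55, with 12 positive and 1 negative difference. The negative one was Fn1, fibronectin, at -1.68 ± 0.61 (limma, adjusted p = 0.106). Ly6c2 rose by 2.06 ± 0.41 (limma, adjusted p = 0.0137) and Chil3, a chitinase-like protein, by 5.17 ± 1.29 (0.0317), with a level of 7.04 on inflamed FCR 1 and 0.87 to 1.78 on the other arrays with withdrawal. The summed signal of the list was 275 times the 75th percentile on inflamed FCR 1, and 62.3 to 77.9 on the other 3. Of 7 patrolling monocyte genes 1, Itgal, rose. Of 19 tested genes of macrophages in general 11 rose and none fell (median 1.88), Cd14 by 4.37 ± 0.32 (adjusted p = 0.00029). Cd14 was at -1.57 and -1.50 on the continuous arrays and 2.66 to 3.08 on the other 4, so that inflamed FCR 2 was not low for this gene.

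Among scavenger receptors 3 of 13 rose (Cd36, Scara3 and Olr1), with a median of -0.09, where 9.54% of all tested genes rose. All 6 genes of lipid-associated macrophages rose (median 3.58), among them Trem2 by 4.97 ± 0.90 (limma, adjusted p = 0.00914) and Gpnmb by at least 88.2-fold (0.00143). Gpnmb, Olr1 and the mast cell marker Cpa3 passed the filter through arrays with withdrawal only, so their rise is partly built in. Of markers of other cells in the liver, 3 of 3 for bile duct cells rose, 1 of 5 for dendritic cells (Itgax) and 1 of 4 for eosinophils and mast cells (Cpa3), and 1 of 4 for hepatocytes, Cyp2e1, fell. None of 5 genes for NK and T cells, 3 for B cells, 5 for sinusoidal endothelium, 4 for stellate cells and 3 for peritoneal macrophages passed. Their part in the results for the 10 genes was not tested. Between tumour and inflamed FCR liver the genes of these lists that passed were Cpa3 (6.72 ± 0.83, adjusted p = 0.0254) and Mcpt4 (6.10 ± 0.89, 0.0426), both of mast cells. Of all tested genes 0.208% passed there.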

How the data were processed

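Each deposited scanner file holds 1 single-colour Agilent array: per the file headers, Feature Extraction 10.7.3.1 gave a background-subtracted processed intensity for each spot with flags for signal well above background, with probe positions on mm9, while the submitters' processing notes give version 10.5. The log2 values of the authors' deposited table, made by a normalization not given in the sources used here, served as an alternative only. Control spots and outlier spots were left out, as were 29 probes with no value left on some array. Repeated spots were averaged per probe. Accessions, without versions, named 26912 of 41145 probes through RefSeq (GRCm38.p6), giving 18342 genes, 6535 with several probes. From each log2 processed signal the 75th percentile of its array was subtracted.

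Tests used limma 3.58.1 in R 4.3.3 (lmFit, eBayes with trend), two-sided, adjusted by Benjamini-Hochberg over 15382 genes at 0.05. A model of 4 group means with 2 residual degrees of freedom gave 4 comparisons, with lone arrays assumed to vary like the other groups; genotype plus withdrawal, with 3, gave the fifth. The steps were tested on simulated data. The 10 genes and the lists were chosen with earlier results of these data known. Named are the 10 genes in each comparison and, from the lists, genes that passed and some of the 3 with the largest difference per list; other list genes (Csf1, Il34, Clec1b and Cd163) and the order in which genes were described were chosen after values were seen. Alternatives were normexp with an offset of 50, quantile and median scaling, no filter, at least 4 arrays above background, slide or regimen as a block, mean of probes, no trend, the authors' values and leaving out arrays; a common floor of -5.12 and other probes of a gene were added after seeing the data.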

Additional observations from a re-analysis of the deposited data

Results flagged for a closer look

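Vsig4 on inflamed FCR 2 had a log2 level of -1.31, far below the other 3 arrays with NTBC withdrawal (1.23, 1.54 and 1.61): the gap to the nearest made up 0.867 of the whole range of the 4, which is past Dixon's limit for 4 values. The 4 arrays come from different genotypes and regimens. Chance flags about 1 in 20 such groups, and the 10 genes were each looked at in this way. Clec4f and Timd4 were also lowest on that array, and their gaps stayed within the limit.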

How the results depend on the processing

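Over all alternatives, 668 of the members' values kept their direction and side of the threshold, 45 newly passed, 13 no longer passed and 29 turned sign; the cause was not tested. Genes called between tumour and inflamed FCR liver were 32, against 191 with normexp, 12 with quantile normalization, 85 with median scaling, 11 with no filter, 984 with slide as a block, 49 with no trend, 4 with the authors' values, 0 with floored values and 56 to 799 with an array left out. Between tumour and healthy liver they were 778, against 472 (quantile), 2544 (slide), 263 (authors' values), 0 (floored) and 500 to 2371 with an array left out. Between inflamed and normal FCR liver they were 270, against 117 (quantile), 159 (no filter), 1909 (slide), 54 (authors' values), 0 (floored) and 458 to 1807. For the difference of responses they were 0, against 2 (normexp), 97 (slide) and 0 to 16. For withdrawal they were 2180, against 1307 (authors' values), 739 (floored) and 277 to 3136. The slide block keeps 1 degree of freedom fewer, so its p-values lean more on spread borrowed from other genes. The replicate numbers name the regimens, and no label says that same-numbered livers share an animal or litter; with regimen as a replicate block 45 genes were called between tumour and inflamed FCR liver, 20 of them higher, no member passed, and Adgre1 was at -0.073.

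Turned values lay near 0 or rested on 1 array. Between tumour and inflamed FCR liver they were Cd5l (0.33 by quantile, 0.27 by the authors' values) and Adgre1 (-0.019 by median scaling). With an array left out, Cd5l ranged from -1.76 to 1.12, Adgre1 from -1.24 to 1.40, Marco from -3.02 to 1.22 and Vsig4 from -0.23 to 2.69. Between inflamed and normal FCR liver Vsig4 was at 0.015 with normexp and 0.62 with slide, and second probes put Cx3cr1, Csf1r and Adgre1 at -0.16, -0.014 and -0.35. With an array left out, Clec4f ranged from -1.25 to 0.73, Vsig4 from -1.49 to 1.43, Timd4 from -4.37 to 0.41, Cx3cr1 from -0.43 to 3.12 and Adgre1 from -0.34 to 2.30. In the difference of responses Cd5l was at -0.089 with median scaling, and with an array left out ranged from -1.42 to 1.46, Vsig4 from -0.31 to 2.62 and Adgre1 from -0.86 to 1.78. In withdrawal Timd4 was at 0.31 with slide, and with an array left out ranged from -1.98 to 0.58, Clec4f from -0.26 to 0.96 and Vsig4 from -0.03 to 1.26. Signal over background limits Cx3cr1, Itgam and Ccr2 on continuous NTBC and Timd4 on inflamed FCR 2.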
